A study of Gallus gallus with 18 samples.

Results

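Chromosome conformation capture carbon copy (5C) libraries of induced HD3 cells (HD3dif) were compared with those of proliferating HD3 cells (HD3pr), 2 libraries each, taken by their labels as 4 of the 18 samples of the series. HD3 is a chicken erythroblast line transformed by avian erythroblastosis virus. HD3pr cells grew at 37 °C. HD3dif cells were taken to 42 °C for 14 h with 20 µM iso-H-7, a protein kinase inhibitor, and 10 mM HEPES. By the study's methods, growth was under added carbon dioxide and induction in air alone. Drug, buffer, temperature, atmosphere and differentiation therefore change together between the groups and cannot be told apart. Both groups come from 1 line that carries the viral transformation. In both, chromatin was fixed in 1% formaldehyde for 10 min by the labels (the study's methods give another concentration) and cut with HindIII, and ligated fragment ends were copied by pairs of ligated primers and amplified by PCR. DT40, a chicken B cell line grown at 37 °C, gave 2 more 5C libraries that enter the fits and are quoted only beside results.

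The 5C primers tile a single 2.73-Mb window, chr14:9800001-12530000 of the galGal4 assembly. It holds 95 forward (FOR) and 95 reverse (REV) primers, and so 9025 primer pairs, each 1 possible contact, of which 8914 had a read in at least 1 of the 4 HD3 libraries. The study divides the window into 3 zones, here counted in 30-kb bins from its start. Zone I (bins 1 to 10, chr14:9800001-10100000, 23 primers) and zone III (bins 67 to 91, chr14:11780001-12530000, 45 primers) are gene-rich. Zone II between them (bins 12 to 66, chr14:10130001-11780000, 122 primers) is a gene desert. By its contacts the study groups the start of zone III, up to a border at bin 73, with the desert, and calls that part poorly transcribed. Values inside zone III pool both parts unless other bounds are named. Bin 11 has 0 primers. Zone III carries the alpha-globin gene domain, AgGD (bins 76 to 78, chr14:12050001-12140000, 5 primers), and a wider segment around it (bins 73 to 82, chr14:11960001-12260000, 17 primers).

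Alpha-globin genes encode the alpha chains of haemoglobin. In birds and mammals they sit among genes that every cell uses, and their main enhancer lies inside one of those neighbours, NPRL3. In erythroid cells the enhancer and the globin promoters come close together in the nucleus. 5C counts such ligations for all primer pairs at once, and read number falls with the distance between primers in any chromatin, so that near and far contacts are compared at matched distances. Active gene-rich chromatin and silent deserts tend to meet their own kind more often than each other, which a 5C map shows as weaker contact between unlike zones.

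The libraries held 5441780 and 5971923 reads on named primers in HD3pr and 5369181 and 6740556 in HD3dif. The primer names of the 2 table axes were exchanged before use. So read, the strongest partner of a primer lay at a median of 10084 to 12626 bp, and as labelled at 64943 to 76611 bp. RNA-seq coverage was read over the zones in other samples of the same 2 conditions, which do not check the labels of the 5C libraries. Over the AgGD bins, scaled to 1000000000 covered bases a library and averaged per bin, it stood at 47574 and 47083 in HD3pr and 318656 and 299425 in HD3dif. It was also higher in HD3dif across zone III without the AgGD (46389 and 47124 against 60235 and 60460), across zone I (53437 and 52069 against 80730 and 80399) and across zone II (456 and 510 against 3181 and 3519). These coverages are a description, with no test, and their part in the contact results was not tested.

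Read numbers were not smooth. Among the 5901 primer pairs over 500 kb apart, the most frequent read number was 226 and 251 for the HD3pr libraries and 267 and 276 for the HD3dif libraries. A second peak lay at 1.94 to 2.05 times that number and a lower one at 0.42 to 0.47 times it. Between 37.0% and 44.7% of these pairs had 5 reads or fewer, the highest share being in HD3dif replicate 1. Reads carried no molecular identifiers. Divided by that most frequent number (here called the step), the libraries held 24079, 23793, 20109 and 24422 steps in the same order, and all intervals below are counted over steps rather than reads. They cover counting error only. What made the steps was not worked out, and with the lower peak the step may not be 1 counted unit, so these intervals are approximate. The reads of a pair differed between replicates, with a chi-square over single reads of 184 per pair in HD3pr and 197 in HD3dif. Between libraries of the 2 groups it was 194 to 210. It was not computed over steps, so it does not show whether replicates differed beyond counting error in steps. Pearson's r of the reads over pairs, which share the fall with distance, was 0.906 in HD3pr and 0.930 in HD3dif, and 0.886 to 0.909 between libraries of the 2 groups, a range that takes in the HD3pr value. The methods call the replicates biological.

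**Figure D1:**
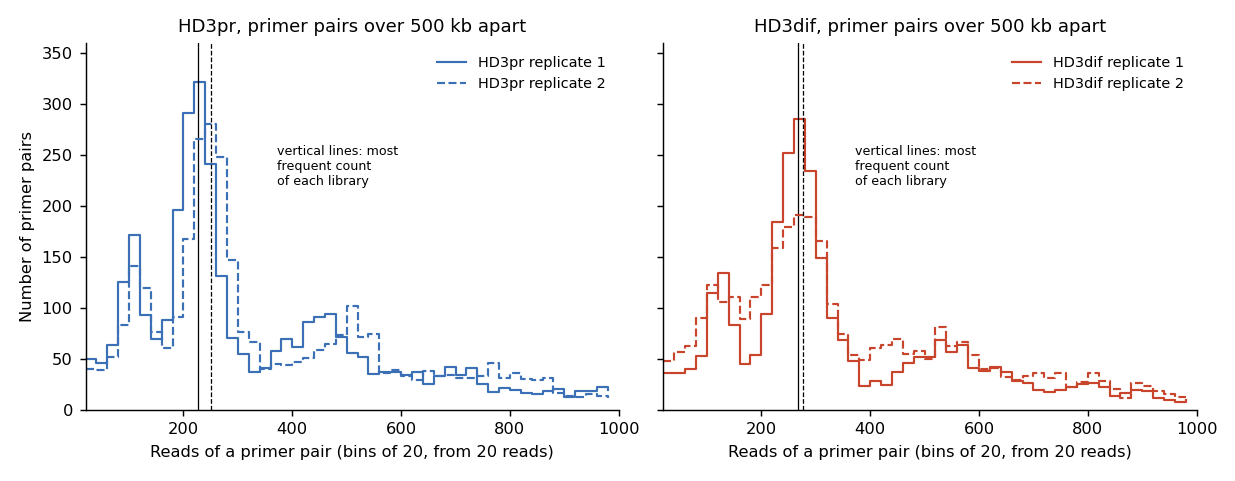
Number of primer pairs (vertical axis) by their reads (horizontal axis, bins of 20 reads from 20 reads up) among the 5901 pairs over 500 kb apart, for each HD3pr (left) and HD3dif (right) library. Vertical lines stand at the most frequent read number of each library (226 and 251, 267 and 276), and further peaks lie near 2.0 and near 0.46 times that number.

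Induced cells had more of their reads on the nearest primer pairs and fewer on the most distant ones. Pairs up to 100 kb apart (689 pairs) took 36.1% and 35.0% of reads in the HD3pr libraries (Wilson 95% intervals 35.5% to 36.7% and 34.4% to 35.6%) and 39.9% and 38.2% in the HD3dif libraries (39.2% to 40.6% and 37.6% to 38.8%). The means were 35.6% ± 0.746 and 39.0% ± 1.18 (SD, n = 2), a difference of 3.49 percentage points, or 0.13 on the log2 scale. Pairs over 1 Mb apart (3501 pairs) took 13.3% and 13.7% of reads in HD3pr (12.9% to 13.7% and 13.2% to 14.1%) and 11.7% in both HD3dif libraries (11.2% to 12.1% and 11.3% to 12.1%), a log2 change of -0.21. Neither pair of groups overlapped. DT40 libraries had 37.5% and 37.3% up to 100 kb, between the HD3 groups.

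With 2 libraries against 2, a two-sided exact permutation test cannot give less than p = 0.333, the smallest value this design allows. That was the p for both shares and is the p for every value per library below in which the groups do not overlap. No such value can pass a threshold of 0.05.

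The largest log2 differences sat at the ends of the distance range. Pairs under 30 kb apart (220 pairs) took 19.7% and 18.2% of reads in HD3pr and 23.6% and 22.3% in HD3dif, or 0.28 on the log2 scale. From 30 to 100 kb (469 pairs) the shares were 16.4% and 16.9% in HD3pr and 16.3% and 15.9% in HD3dif. From 100 to 300 kb they were 22.8% and 22.9% against 21.4% and 22.4%, and from 300 kb to 1 Mb 27.8% and 28.4% against 27.1% and 27.7%. So the excess up to 100 kb lay in the pairs under 30 kb: without them the log2 change of the near share was 0.03. Without the 1% of pairs with most reads it was 0.07. Among far pairs, those from 1 to 1.5 Mb took 7.65% and 8.07% in HD3pr and 6.77% and 7.03% in HD3dif, and those over 1.5 Mb 5.63% and 5.61% against 4.89% and 4.66%. Both far classes lay lower in each HD3dif library than in either HD3pr library, with log2 changes of -0.19 and -0.24. The classes from 30 to 100 kb, 100 to 300 kb and 300 kb to 1 Mb were also lower without overlap. Their log2 changes were smaller, at -0.05, -0.06 and -0.04. Shares add up to the whole library, so a gain in one class lowers the others together.

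Per primer pair, the mean fell from 894 and 826 rpm (the reads divided by the library's reads on named primers, times 1000000) under 30 kb to 34.6 and 35.1 rpm from 1.41 to 2.00 Mb in HD3pr. In HD3dif it fell from 1072 and 1013 rpm to 29.3 and 27.8 rpm. Over log-spaced bands from 30 kb to 2 Mb the slope of log2 reads on log2 distance was -0.691 and -0.689 in HD3pr against -0.718 and -0.710 in HD3dif, and -0.725 and -0.721 in DT40. In corrected maps the slopes overlapped, at -0.747 and -0.734 in HD3pr and -0.756 and -0.746 in HD3dif. The steeper slope of induced cells came from the far end. From 100 kb to 1 Mb the slopes were -0.730 and -0.722 in HD3pr and -0.699 and -0.722 in HD3dif, a difference in the opposite direction that did not exceed the spread between replicates.

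**Figure D2:**
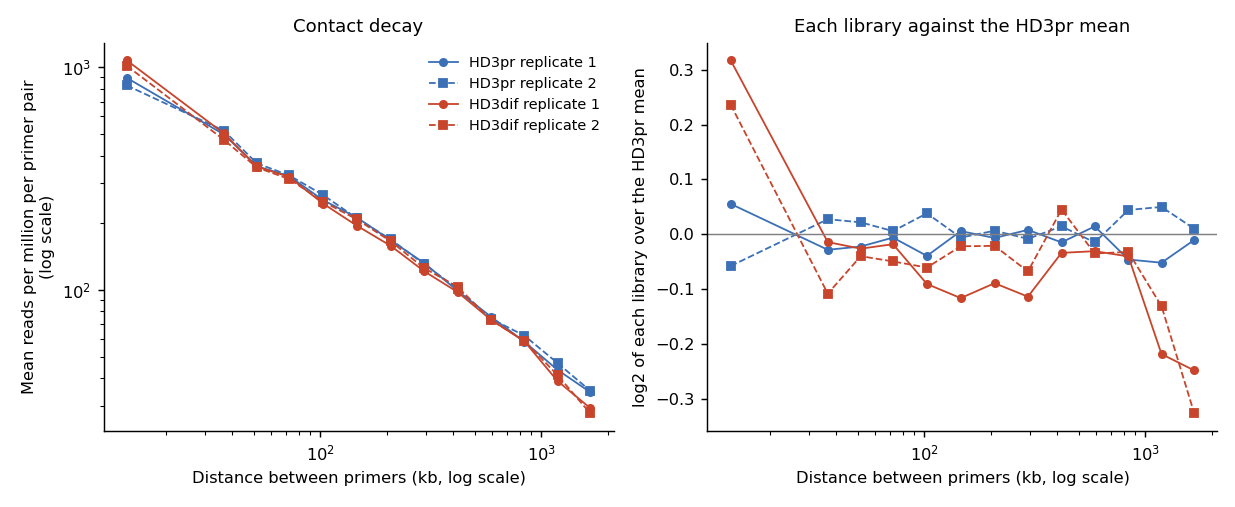
Left, mean rpm per primer pair (log scale) against the distance between primers (kb, log scale) in the 4 HD3 libraries. Right, log2 of each library over the HD3pr mean by distance: both HD3dif libraries lie above both HD3pr libraries under 30 kb and below them beyond 1 Mb.

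Zone by zone at matched distances, the short-range excess of HD3dif was largest in the gene desert, and lower values at middle distances were found in the gene-rich zones. Inside zone II, pairs under 30 kb apart (145 pairs) had 894 and 826 rpm per pair in HD3pr and 1169 and 1075 rpm in HD3dif, a log2 change of 0.39. Inside zone III the 47 pairs of that distance had 829 and 755 rpm against 759 and 789 rpm, and these groups overlapped. Inside zone I the 27 pairs had 1036 and 967 rpm against 1118 and 1095 rpm.

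From 30 to 100 kb the zones went different ways. Zone III pairs (91 pairs) had 266 and 279 rpm in HD3pr and 198 and 185 rpm in HD3dif, a log2 change of -0.51. Zone II pairs (318 pairs) had 374 and 379 rpm against 396 and 393 rpm, a log2 change of 0.07. Zone I pairs (44 pairs) had 378 and 398 rpm against 365 and 315 rpm. From 100 to 300 kb, zone III pairs had 110 and 121 rpm against 84.7 and 87.8 rpm, a log2 change of -0.43, and zone I pairs had 223 and 193 rpm against 159 and 163 rpm, a log2 change of -0.37. Zone II pairs at that distance had 200.1 and 196 rpm against 204 and 214 rpm. Beyond 300 kb zone III showed no separation, with 40.2 and 49.4 rpm against 50.4 and 43.3 rpm. The differences between zones were not tested as such.

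**Figure D3:**
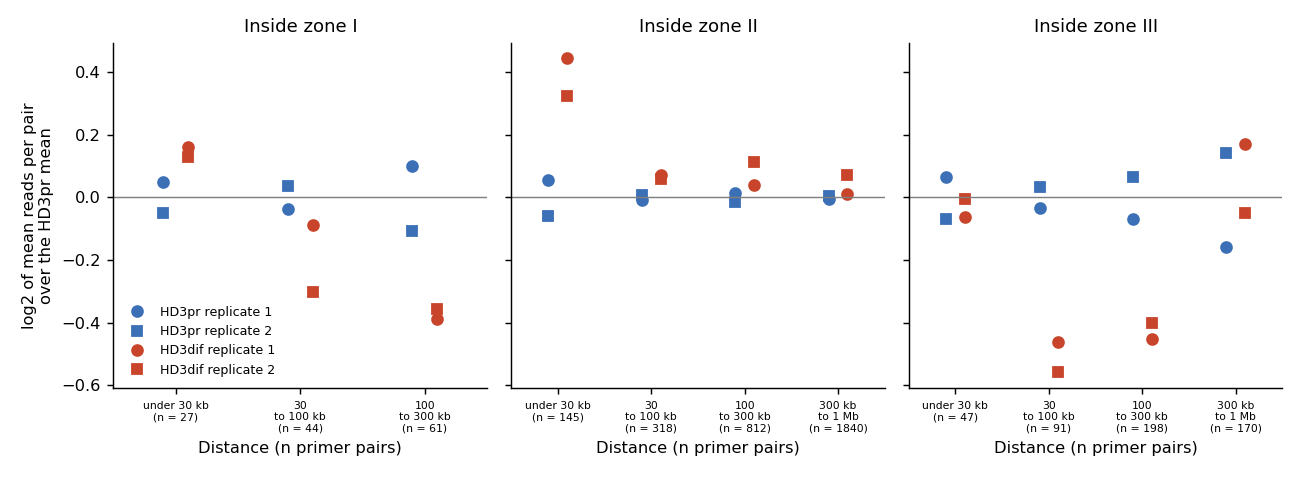
log2 of the mean rpm per primer pair over the HD3pr mean, for pairs inside zone I, zone II and zone III by distance class, 1 point per library. HD3dif lies highest under 30 kb inside zone II (0.39 above the HD3pr mean, from the mean of its libraries) and lowest from 30 to 100 kb inside zone III (-0.51).

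The share of all reads held by each zone differed as well. Pairs with both primers in the desert are 41.2% of all pairs and took 63.7% and 62.8% of reads in HD3pr and 68.4% and 68.8% in HD3dif. Pairs inside zone III took 9.19% and 9.32% against 7.90% and 7.87%. Pairs inside zone I took 5.82% and 5.54% against 5.59% and 5.33%, where the groups overlapped. The shares of the 3 classes between zones were 7.93% and 8.44% against 6.51% and 6.66% for zone I with zone II, 11.4% and 12.02% against 9.97% and 9.72% for zone II with zone III, and 1.95% and 1.90% against 1.65% and 1.58% for zone I with zone III. In each of these 3 classes both HD3dif libraries lay below both HD3pr libraries.

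The test across libraries used edgeR's quasi-likelihood test on raw reads with Benjamini-Hochberg adjustment, called at an adjusted p under 0.05 and scaled by library totals. At the level of 150-kb blocks (18 blocks, 171 block pairs), 24 block pairs were called, 14.0% of those tested. Of these, 6 rose (3.51%) and 18 fell (10.5%). All 6 rises were desert blocks with themselves, out of 11 such blocks. Of the 66 block pairs inside zone II, 1 fell. Falls took in 7 of 22 block pairs of zone I with zone II, 4 of 15 inside zone III, 4 of 55 of zone II with zone III and 2 of 10 of zone I with zone III. The split depends on the scaling: TMM factors gave 14 rises and 8 falls, RLE factors 10 and 8, and DESeq2 13 and 11. Relative to library totals, TMM moved the median log2 change of all primer pairs from -0.05 to 0.07. The median over block pairs inside zone II stayed above 0 and those inside zone III and between zones stayed below 0 under each of these scalings, and that inside zone I went from -0.09 to 0.02 with TMM.

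The count of called block pairs rested on few libraries. It was 6 without HD3pr replicate 1, 3 without HD3pr replicate 2 and 13 without either HD3dif library, with the lone library of a group assumed to vary like the others. No called block pair changed sign in any of these. It was 7, all falls, when the mean reads at each distance were divided out per library, 11 without the primer pairs under 30 kb apart, and 17 when reads were counted in steps.

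The block with the largest rise was the desert block chr14:11000001-11150000 with itself, which had 22807 and 25494 rpm in HD3pr and 33789 and 30575 rpm in HD3dif. Its log2 change was 0.41 (SE 0.08, adjusted p = 3.91e-05, edgeR). The block chr14:11300001-11450000 followed, from 24464 and 20383 rpm to 31394 and 26859 rpm, at 0.38 on the log2 scale. The desert blocks chr14:10550001-10700000, chr14:10400001-10550000 and chr14:10850001-11000000 rose by 0.33, 0.31 and 0.30. In each, both HD3dif libraries exceeded both HD3pr libraries, which was a condition for naming a block pair and so adds no support. DT40 had 22210 and 22818 rpm in the first of these blocks, near the HD3pr level. None of the 5 remained called once the mean decay was divided out.

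The deepest falls joined zones or flanked the globin domain. Contact between chr14:9950001-10100000, the end of zone I, and chr14:10100001-10250000, the first desert block, fell from 12929 and 13630 rpm to 7693 and 9479 rpm, a log2 change of -0.63 (SE 0.10, adjusted p = 5.02e-08, edgeR). Contact of the block with the AgGD, chr14:12050001-12200000, with its upstream neighbour chr14:11900001-12050000 fell from 7904 and 7632 rpm to 4854 and 4761 rpm, a log2 change of -0.69 (SE 0.12, adjusted p = 5.43e-07, edgeR). This pair kept its call under every alternative run. The AgGD block with the first block of zone I, chr14:9800001-9950000, changed by -0.84 (SE 0.27, adjusted p = 0.024, edgeR), from 1177 and 1112 rpm to 547 and 732 rpm, and lost its call under 12 of 16 alternatives. Contact of chr14:10250001-10400000 with chr14:11750001-11900000, where the desert meets zone III, fell from 3648 and 4056 rpm to 2067 and 2258 rpm (log2 -0.83). Contact of the end of zone I with chr14:11450001-11600000 went from 2982 and 3409 rpm to 2295 and 1830 rpm (log2 -0.63). The call of this pair was lost under 4 of 16 alternatives, and that of the pair before it under 2. That of the end of zone I with the first desert block was lost under 1.

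**Figure D4:**
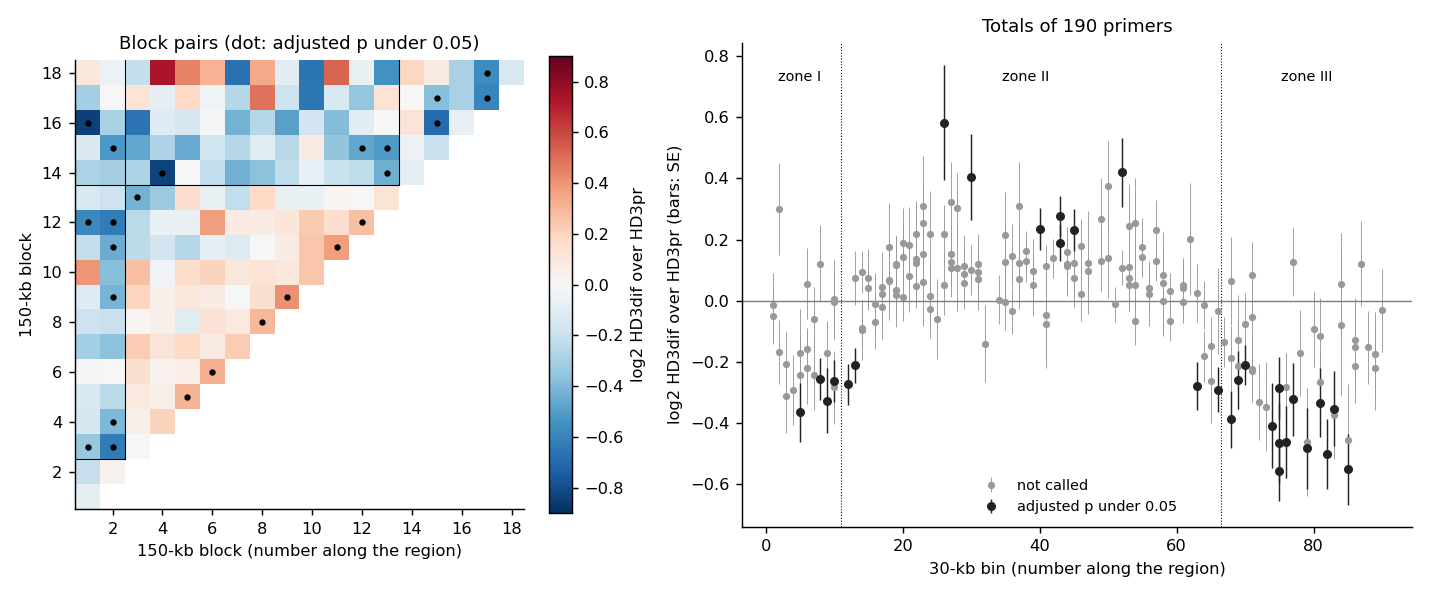
Left, log2 of HD3dif over HD3pr for pairs of 150-kb blocks numbered along the region, with dots at an adjusted p under 0.05 (edgeR) and lines at the zone borders: the 6 called rises lie on the diagonal inside zone II. Right, log2 change with its SE for the totals of 190 primers by 30-kb bin, 29 of them called: 7 rises, all inside zone II, and 22 falls, 14 of them inside zone III.

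Summed over all partners of a primer, 29 of 190 primers were called, 15.3% (edgeR), of which 7 rose (3.68%) and 22 fell (11.6%). The 7 rises were all among the 122 desert primers, of which 4 fell, near its 2 ends. In zone III 14 of 45 primers fell and 0 rose, and in zone I 4 of 23 fell and 0 rose. The median log2 change was -0.17 in zone I, 0.09 in zone II, -0.22 in zone III and 0.03 over all 190 primers. Within the 17 primers of the segment around the AgGD 9 fell and 0 rose, with a median of -0.33. Without HD3pr replicate 2 only 8 primers were called, of which 7 were among the 29, and without the other HD3 libraries 23 to 30 were.

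REV_981 (chr14:12024535-12024564), which lies just before the AgGD, fell the most. It took 6521 and 6656 rpm of primer ends in HD3pr (each read counted at both of its primers) and 4479 and 4493 in HD3dif, a log2 change of -0.55 (SE 0.10, adjusted p = 5.5e-06, edgeR). Its reads with desert primers changed by -0.58 and those with zone III primers by -0.57, so the difference was spread over both. REV_1091 (chr14:12323402-12323431) and REV_1060 (chr14:12256623-12256652), on the other side of the AgGD, fell by 0.55 and 0.50 on the log2 scale. Their reads with zone III partners changed by -0.81 and -0.74 and those with the desert by 0.04 and -0.03. FOR_1027 (chr14:12158967-12158996) and FOR_986 (chr14:12028668-12028697) fell by 0.48 and 0.46.

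The 7 primers that rose lay across the middle of the desert. For the 5 with the largest rises, reads were split by the zone of the partner, and those with other desert primers were higher in HD3dif on average. Desert partners held most of the reads of each, for REV_562 8913 of 9683 rpm of primer ends in HD3pr replicate 1. The higher desert part thus largely follows from choosing primers by their totals. With zone I partners REV_400, REV_531, REV_676, REV_562 and REV_337 changed by 0.44, 0.22, 0.19, -0.12 and -0.51. REV_562 (chr14:11066530-11066559) took 9683 and 9928 rpm of primer ends in HD3pr and 11879 and 11888 in HD3dif, a log2 change of 0.28 (SE 0.07, adjusted p = 0.0014, edgeR). With desert partners it changed by 0.32, and with zone III partners by -0.54. REV_531 (chr14:10989897-10989926) changed by 0.27 with the desert. With zone III it changed by -0.51, but the groups overlapped (582 and 363 rpm of primer ends against 421 and 244). REV_676 (chr14:11336808-11336837) and REV_400 (chr14:10679803-10679832) rose by 0.42 and 0.41 in all. REV_337 (chr14:10558994-10559023) rose by 0.58 from low totals, 648 and 518 against 1040 and 707, and with desert partners alone by 0.75. With zone III partners REV_676, REV_400 and REV_337 changed by 0.09, -0.07 and -0.36, and the groups overlapped in each.

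Of the 5 primers inside the AgGD bins, 2 fell and none rose, beside 11.6% of all primers and 14 of 45 in zone III that fell. REV_1001 (chr14:12072411-12072440) took 4235 and 4348 rpm of primer ends in HD3pr and 3188 and 3048 in HD3dif, a log2 change of -0.46 (SE 0.12, adjusted p = 0.00277, edgeR). FOR_1006 (chr14:12083275-12083304) had 4002 and 3980 against 3344 and 3042, a log2 change of -0.32 whose call (adjusted p = 0.0472, edgeR) was lost with only the HD3 libraries and without any 1 of 5 of the 6 libraries. FOR_996 (chr14:12060214-12060243) had 4386 and 3681 against 3380 and 3254 and was not called (adjusted p = 0.058, edgeR). FOR_1017 (chr14:12128317-12128346) had 2267 and 2078 against 2087 and 1775, and REV_1012 (chr14:12098634-12098663) had 2936 and 3080 against 3468 and 3108, the only one of the 5 higher in both induced libraries. Together the 5 primers took 1.78% and 1.72% of all primer ends in HD3pr and 1.55% and 1.42% in HD3dif. The log2 change of that share was -0.24, as was that of all zone III primers together.

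Single contacts were not resolved. None of 8212 primer pairs tested was called (0%, edgeR's quasi-likelihood test), with 360 at an unadjusted p under 0.05, or 4.38%, and DESeq2 called 530 (6.45%). None of 3532 pairs of 30-kb bins was called either (0%), with 226 at an unadjusted p under 0.05, or 6.4%, DESeq2 called 215 (6.09%) and limma on corrected maps 18 (0.613%). In simulated libraries the edgeR test called 0% of 2-fold changes at both levels, 100% of them among block pairs, and 65% of 1.5-fold changes among block pairs. It also called 2 unchanged primer pairs and 5 unchanged block pairs. The changes were placed at primer pairs and bin pairs drawn at random, each given the spread typical of its read number. The simulation therefore does not show what could be detected at near primer pairs with many reads.

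The primer pairs with the smallest unadjusted p, none of them called (adjusted p = 0.9, edgeR), were of 2 kinds. FOR_738 with REV_733, neighbours 13.8 kb apart at chr14:11426484-11440325 in the desert, had 1217 and 1093 rpm in HD3pr and 2316 and 2226 rpm in HD3dif. FOR_1054 with REV_1060, 32.2 kb apart beyond the AgGD, had 1623 and 1264 rpm against 377 and 478 rpm. The other 4 were more distant pairs with 6 reads or fewer in each library of one group and several steps in the other. FOR_210 with REV_358 had 6 and 5 reads against 1386 and 2351, FOR_867 with REV_687 2 and 1 against 587 and 703, FOR_944 with REV_723 992 and 798 against 1 and 1, and FOR_90 with REV_172 866 and 1340 against 3 and 2. Among bin pairs, bin 55 with itself rests on the FOR_738 and REV_733 pair alone. Bins 42 and 43, neighbours in the desert at chr14:11030001-11090000, had 2440 and 2178 rpm against 4398 and 3885 rpm, and bins 81 and 82 in the globin segment had 2260 and 1685 rpm against 871 and 857 rpm. Bins 7 and 86 had 3 and 4 reads against 800 and 568, bins 16 and 64 had 531 and 380 reads against 2 and 3, and bins 42 and 85 had 319 and 759 reads against none. In 1 library alone, and if the step is 1 counted unit, a count of 0 allows up to 3 steps. That is more reads than either HD3pr library had there, but no bound was set for both HD3dif libraries together. These bin pairs were not called (adjusted p = 0.479, edgeR).

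Maps of 30-kb bins, made as means over the primer pairs of a bin pair, were compared before and after iterative correction, which gives every bin the same mean contact and so removes by construction a gain or loss that a bin shows with all partners. Before correction, mean contact inside zone III was 147 and 151 rpm per primer pair in HD3pr and 121 and 117 rpm in HD3dif, a log2 change of -0.32. Inside the segment around the AgGD it was 292 and 296 rpm against 219 and 218 rpm, a log2 change of -0.43, and inside the desert 169 and 169 rpm against 176 and 179 rpm, a log2 change of 0.07. After correction these became 256 and 263 against 253 and 254 for zone III, 483 and 476 against 461 and 468 for the segment, and 139 and 140.2 against 136 and 137 for the desert, log2 changes of -0.04, -0.05 and -0.04. The sign inside the desert thus reversed with the correction. Set over the contact expected at each distance, the log2 changes were 0.08 inside zone III, 0.00 inside the segment and -0.01 inside the desert. The small difference after correction thus changed direction inside zone III. Inside the desert it stayed below 0, but over the expected contact the groups overlapped there and inside the segment. Contact inside zone I overlapped after it, at 425 and 435 against 444 and 413.

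Among the contacts within and between zones, the largest difference after correction was that of zone I with zone II. It was 65.2 and 68.5 rpm per primer pair in HD3pr and 54.8 and 55.1 rpm in HD3dif before correction (log2 -0.28), and 61.7 and 63.7 against 54.0 and 56.9 after it (log2 -0.18), and -0.09 on the log2 scale over the contact expected at each distance. The corrected DT40 maps had 55.7 and 54.8. For zones I and III it was 59.5 and 52.2 against 55.6 and 55.5 after correction. For zones II and III it was 47.5 and 49.2 against 47.7 and 45.3. Both overlapped between the groups. With zone II ending at bin 72 and zone III starting at bin 74, zones II and III had 39.6 and 41.1 against 46.9 and 42.6. There both induced libraries were higher (log2 0.15), whereas before correction, with the main bounds, both were lower (log2 -0.22). Over the contact expected at each distance, with the main bounds, neither of these contacts overlapped between the groups. Zones I and III had 1.20 and 1.27 against 1.16 and 1.18, lower in both induced libraries (log2 -0.08). Zones II and III had 0.805 and 0.809 against 0.861 and 0.815, higher in both (log2 0.05).

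**Figure D5:**
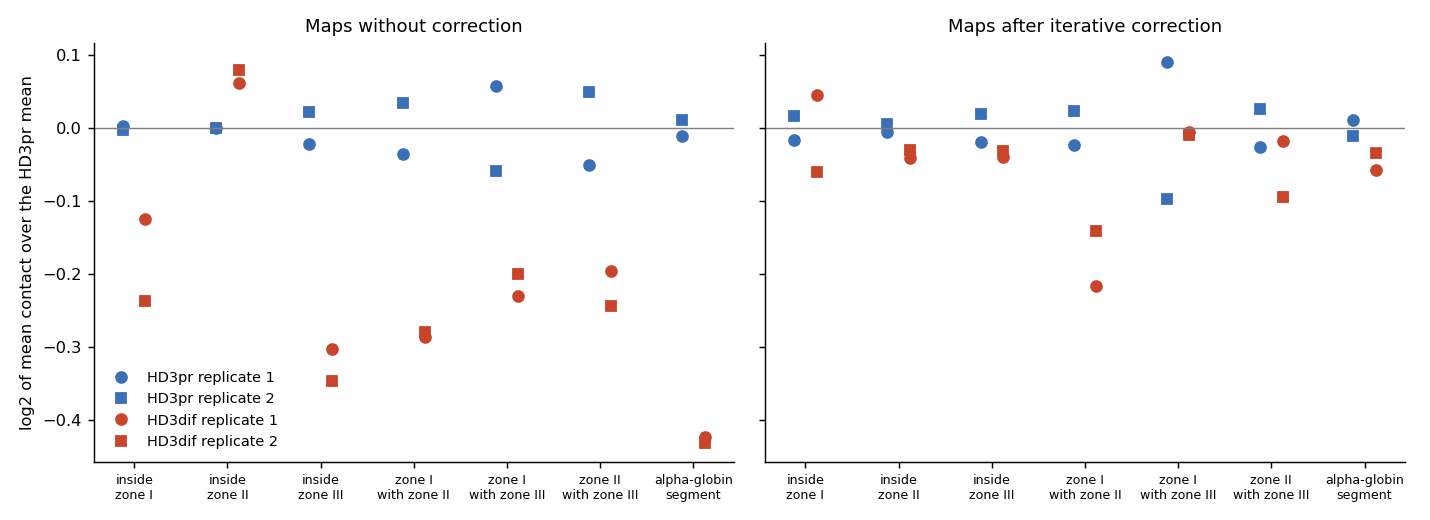
log2 of mean contact over the HD3pr mean within and between zones and inside the segment around the AgGD, 1 point per library, in maps without correction (left) and after iterative correction (right). Of the contacts plotted, the largest difference after correction is that of zone I with zone II (-0.18), and the difference inside the segment goes from -0.43 to -0.05.

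For the AgGD bins themselves, corrected contact with zone I was 56.4 and 55.6 in HD3pr against 36.9 and 52.7 in HD3dif, a log2 change of -0.32, lower in both but far apart between the induced replicates. With the desert it was 32.9 and 32.3 against 31.0 and 27.0, a log2 change of -0.17. With the part of zone III before the AgGD it was 228 and 202 against 200.2 and 213, and with the part after it 236 and 258 against 255 and 239. Both of these overlapped. Contact among the 3 AgGD bins (3 bin pairs) was 915 and 1008 against 906 and 1036, without separation. DT40 had 584 and 675. Before correction each of these contacts was lower in both induced libraries. Among the AgGD bins it was 678 and 628 rpm per primer pair against 564 and 580 (log2 -0.19). The log2 changes were -0.48 with zone I, -0.35 with the desert, and -0.33 and -0.25 with zone III before and after the AgGD. Contact among the AgGD bins rests on few primer pairs. Bin 78 holds only FOR_1017, so its contact with bin 76 or bin 77 is that of a single primer pair.

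The insulation at a border, the mean corrected contact across it within 5 bins on each side relative to the mean over all bins, falls where few contacts cross. At the border between zones I and II, after bin 11, the HD3pr libraries had 0.795 and 0.815 and the HD3dif libraries 0.699 and 0.725 (0.689 and 0.635 in DT40). One bin on, after bin 12, it was at its lowest in the region, 0.552 and 0.609 against 0.432 and 0.474. Fewer contacts crossed the start of the desert in both induced libraries than in either proliferating one. At the border the study places upstream of the AgGD, here after bin 73, the first bin of the segment, the groups overlapped. The values were 0.821 and 0.750 against 0.777 and 0.814. After bin 83, beyond the segment, they were 0.902 and 0.974 against 0.839 and 0.7997. With 8 bins on each side the groups overlapped there, at 1.01 and 1.14 against 1.03 and 0.949. Of the 11 local minima of the profile, that after bin 66, where zone III begins, had 0.641 and 0.879 against 0.569 and 0.678, which overlapped. That after bin 60, inside the desert, had 0.864 and 0.852 against 0.887 and 0.940. There both induced libraries were higher, also with 3 or 8 bins on each side.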

How the data were processed

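The 5C libraries of HD3pr, HD3dif and DT40 (2 each) were grouped by their labels, which the methods call biological replicates. For 5C, the authors mapped reads with bowtie2 to the studied window of galGal4 and deposited counts of reads per primer pair, unnormalized, with 1 table per library. The tables carry 1 unnamed column of per-sample values, which was not used. The names of the axes were read as exchanged. C-TALE maps, in which replicates are merged, were not used here. The authors also deposited RNA-seq coverage (signal) per base without scaling, whose processing notes by the submitters list TopHat2 2.0.12, Bowtie2 2.2.1 and bedtools 2.16.2.

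Reads were divided by the total on named primers. For maps, primer pairs falling in 1 pair of 30-kb bins were averaged and the result corrected iteratively per library, as the methods describe. Counts of primer pairs, bin pairs, 150-kb block pairs and primers with at least 10 reads in 2 of the 6 libraries were tested with edgeR 4.0.16 (quasi-likelihood, library totals, Benjamini-Hochberg adjustment over all features, limit 0.05) in R 4.3.3. SEs are those of the log2 change. Values per library were compared by an exact two-sided permutation test. A block pair was assigned to the zones that hold most of its primers. Wilson intervals have a 95% level.

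On simulated data at these depths the test called 100% of 1.5-fold changes in primer totals and 65% in block pairs, where 5 of the unchanged block pairs were called too, and 0% of 2-fold changes in primer pairs and bin pairs. Named block pairs and primers are the 5 largest rises and falls among those called, with groups that do not overlap and a mean of at least 100 reads, plus the 5 primers of the AgGD bins. Where none was called, the 3 smallest p in each direction are given. Fixed erythroid and lymphoid marker lists (16 and 6 genes) could not be read, since 0 of 17108 gene identifiers were paired with a symbol. Alternatives were TMM and RLE factors, DESeq2 1.42.0, limma 3.58.1 on corrected bin pairs, no filter, only HD3 libraries, a block for the replicate number, names as labelled, each library left out, decay divided out, pairs under 30 kb left out, other limits and zone bounds, observed over expected contacts and smoothed maps. Counting reads in steps was chosen after seeing the data. The zones, lists and tests were chosen with earlier results of these data known.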

Additional observations from a re-analysis of the deposited data

Results flagged for a closer look

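The last column of each 5C table carries no primer name and enters no comparison. It held 31833 and 34805 reads in HD3pr, 28470 and 42819 in HD3dif and 41716 and 34822 in DT40, which is 0.527% to 0.777% of the reads of a library and above 0 in all 6. HD3dif held both the lowest and the highest value of the HD3 libraries, so the column did not separate the groups.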

How the results depend on the processing

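The numbers of the replicates did not pair the libraries, with correlations of deviations from the group means of -0.02 to 0.02. With the replicate number as a block, 22 block pairs and 27 primers were called in place of 24 and 29, and no primer pair or bin pair. Of the named items, FOR_1006 lost its call with the block. The count of primer pairs was 530 with DESeq2, and that of bin pairs 215 with DESeq2 and 18 with limma on corrected maps. The count of block pairs was 7 with the decay divided out and 11 without pairs under 30 kb. Leaving out 1 library gave 3 to 17 block pairs, 8 to 30 primers, and 0 primer pairs and bin pairs. Under the names as labelled, FOR_210 with REV_358 changed by -0.24, FOR_944 with REV_723 by 0.61, REV_531 by -0.045, FOR_1027 by 0.13 and REV_1012 by -0.48 on the log2 scale, and 6 of the 29 primers called were called in the same direction and 6 had the other sign. The 24 called block pairs kept their direction under all alternatives run.

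The log2 change of the near share was 0.18 with a limit of 60 kb, 0.084 with 200 kb, 0.027 without pairs under 30 kb, 0.073 without the 1% of pairs with most reads, and 0.10 to 0.17 with 1 library left out. That of the far share was -0.11 with a limit of 500 kb, -0.24 with 1.5 Mb, -0.13 without pairs under 30 kb, -0.15 without the strongest pairs, and -0.23 to -0.19 with 1 library left out. The slope difference was 0.016 from 100 kb to 1 Mb, -0.011 in corrected maps, -0.063 with names as labelled, -0.014 without the strongest pairs, and -0.027 to -0.0195 with 1 library left out.

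For corrected contact, without the correction the log2 changes were -0.18 inside zone I, 0.070 inside zone II, -0.32 inside zone III, -0.43 inside the segment, and -0.28, -0.22 and -0.22 for zone I with II, I with III and II with III. Observed over expected gave -0.0073 inside zone II, 0.083 inside zone III, 0.0029 inside the segment, -0.089 for zone I with II, -0.078 for I with III and 0.055 for II with III. Names as labelled gave 0.063 inside zone I, -0.0022 inside zone II, 1.91e-05 inside zone III and -0.0084 inside the segment. Other zone bounds gave -0.057 inside zone II, -0.14 inside zone III and 0.15 for II with III, against -0.056 for II with III under the main bounds. Smoothed maps gave -0.10 inside zone III, -0.29 for I with II and -0.070 inside the segment. With 1 library left out the ranges were -0.060 to 0.045 inside zone I, -0.041 to -0.030 inside zone II, -0.054 to -0.017 inside zone III, -0.22 to -0.14 for I with II, -0.098 to 0.089 for I with III, -0.094 to -0.018 for II with III, and -0.058 to -0.035 inside the segment. Insulation after bin 73 changed by 0.018 (-0.046 to 0.085 with 1 library left out) and by 0.094 with 8 bins, and after bin 11 by -0.18 (-0.20 to -0.15) and by -0.25 with 3 bins and -0.30 with 8. The causes were not tested. Of the alternatives for the named items, 468 kept direction and call, 70 lost the call and 20 gained one. Direction reversed for 2 primer pairs and 3 primers, in each under the names as labelled.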

Other observations

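FOR_986, just before the AgGD, was called lower in HD3dif (3294 and 3231 rpm of primer ends) than in HD3pr (4762 and 4243). In the DT40 libraries it took 319.8 and 439 rpm of primer ends. That was the lowest level in any of the 6 libraries among the primers described singly above. Among all 190 primers FOR_1086 went lower, with 286 rpm of primer ends in DT40 replicate 2.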
